A study of Acomys cahirinus and Mus musculus with 24 samples.

Results

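The Fos and Jun genes encode the subunits of AP-1, a transcription factor that binds DNA as a dimer. They are grouped here with Egr1, Atf3 and Ier3 as AP-1 and immediate early genes. Immediate early genes are those that cells transcribe soon after a stimulus and without new protein synthesis, which need not hold for each gene of the group. The 10 genes described here were taken by symbol: Fos, Fosb, Fosl1 and Fosl2 of the Fos family, Jun, Junb and Jund of the Jun family, the zinc finger factor gene Egr1, the bZIP factor gene Atf3 and the survival gene Ier3. Of these, 8 were read from the count table shared by both species, which holds 14514 features. Fosl1 is not listed there, and Ier3 is listed at 0 in every Mus library of it, so these 2 were read from the separate table of each species.

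RNA was sequenced from dorsal skin of adult Mus musculus of the outbred CD-1 stock and of adult Acomys cahirinus (African spiny mouse), which is known for skin wounds that regenerate rather than scar. The groups were unwounded skin (day 0) and full-thickness excisional wounds, 8 mm across when made, taken on day 7 or day 14. Each species had 4 libraries per day, except for 3 at day 0 in Mus, where the submitters left out replicate 3 for poor quality. The labels do not say whether each library came from a separate animal, so the p-values measure the spread between these libraries, which may be partly technical. Total counts per library, without spike-in RNAs, were 5892487 to 9671780 in the shared table, 9207750 to 13016344 in the Mus table and 12965049 to 18315534 in the Acomys table. The defining markers of keratinocytes and fibroblasts had counts in every library, 9 of 9 and 8 of 8 measured.

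AP-1 dimers form through a leucine zipper and touch DNA through the basic region that precedes it, which together make up the bZIP domain. Jun proteins can pair with themselves or with Fos proteins, whereas Fos proteins need a Jun partner. Growth factors, cytokines and mechanical stress reach these genes through MAP kinases, which act on the serum response factor and its partners at the Fos and Egr1 promoters and on Jun protein itself. In skin, AP-1 is known for its part in keratinocyte migration and differentiation, in inflammation and in the expression of matrix-degrading enzymes, and JunB and c-Jun are known regulators of epidermal growth factor signalling in wounds.

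What these genes share at the sequence level is shown by the 48 coding bases of the basic region in the mouse transcripts of GENCODE vM21, written 5' to 3' on the coding strand, with capitals on the codons of the asparagine and the arginine that bZIP proteins conserve and that contact the DNA.
Fos: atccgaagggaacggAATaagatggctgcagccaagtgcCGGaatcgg
Fosb: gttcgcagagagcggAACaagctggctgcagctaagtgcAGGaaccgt
Fosl1: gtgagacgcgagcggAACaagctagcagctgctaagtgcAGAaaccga
Fosl2: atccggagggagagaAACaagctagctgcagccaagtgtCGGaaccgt
Jun: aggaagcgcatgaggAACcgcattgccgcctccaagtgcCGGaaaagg
Junb: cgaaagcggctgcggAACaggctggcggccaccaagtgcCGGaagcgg
Jund: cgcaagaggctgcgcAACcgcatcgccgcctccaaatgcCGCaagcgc
Atf3: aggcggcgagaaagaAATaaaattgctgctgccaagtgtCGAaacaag
Over these bases, Fos genes were 66.7 to 79.2% identical to each other, Jun genes 72.9 to 75%, and a Fos gene to a Jun gene 50 to 64.6%. The longest exact run shared by the annotated transcripts of any pair among the 10 genes was 20 bases, between Jun and Jund, against sequenced reads of 150 bases. In the GRCm38 build of that annotation, which is later than the mm9 build named by the submitters, Fos lies at chr12:85473890-85477273 on the plus strand, Jun at chr4:95049034-95052222 on the minus strand, and Junb and Jund on the same chromosome at chr8:84974484-84978718 (minus) and chr8:70698949-70700616 (plus). Fosb lies at chr7:19302696-19310051 (minus), Fosl1 at chr19:5447547-5455946 (plus) and Fosl2 at chr5:32135801-32157842 (plus). Atf3 lies at chr1:191170296-191218039 (minus) and Ier3 at chr17:35821684-35822923 (plus).

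Levels below are CPM, that is, counts scaled to a common library size and not by transcript length, so they compare libraries of the same gene and not genes with each other. A change is a log2 fold change from the edgeR quasi-likelihood test ± an approximate SE. That SE is the absolute change divided by the square root of the F statistic, so it need not be exact for large changes. The words rose and fell are kept for genes where the Benjamini-Hochberg adjusted p of that test, over all features tested, was under 0.05. Statements that groups overlap or lie apart describe the printed libraries only. The share of all features whose groups lie apart was not counted, so such separation may be common. The tissue was whole skin, in which fewer cells of a type and less RNA per cell cannot be told apart.

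**Figure D1:**
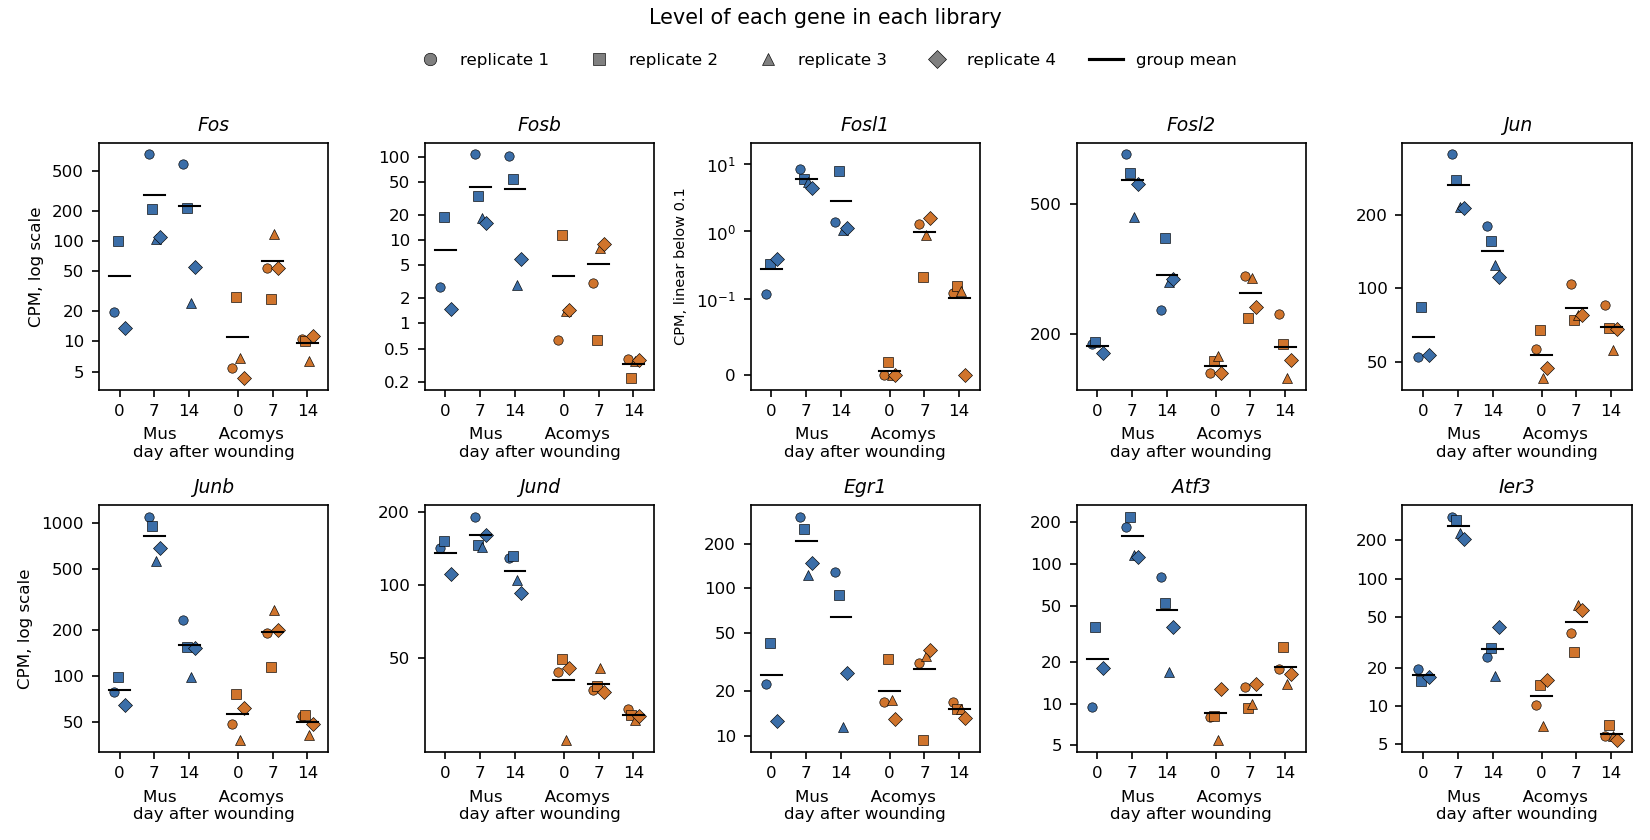
Level of each of the 10 genes in every library, in CPM on a log scale (for Fosl1 linear below 0.1), by species and day after wounding. Points are libraries, with the shape giving the replicate number, and bars are group means. Fosl1 and Ier3 come from the table of each species and the other 8 from the shared table. The 4 Mus day 7 libraries of Junb, at 562 to 1095 CPM, lie above every other library, and the Jund points of Acomys lie below all those of Mus.

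In Mus wounds at day 7, 8 of the 10 genes had risen against unwounded skin and none had fallen. The background was 27% of features higher in the shared table and 29.3% in the Mus table. The median change of the 10 was 2.80 on the log2 scale. The Jun partner Junb, the stress-response factor Atf3, Egr1, and Ier3 rose between 7.49-fold and 14.8-fold, and Fosl1 rose 22.4-fold from a very low level. Fosb and Jund did not pass the test.

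Among the Fos genes, Fos itself, the prototype member of the family, stood at 19.8, 101 and 13.5 CPM in Mus skin (replicates 1, 2 and 4) and at 731, 207, 106 and 109 CPM in the day 7 wounds (replicates 1 to 4). The groups did not overlap, but by little: the highest skin library, replicate 2, lay just under the lowest wound library. The change was 2.69 ± 1.04 (adjusted p = 0.0371, edgeR). That call was lost when Mus day 0 replicate 1, day 0 replicate 4 or day 7 replicate 1 was left out (adjusted p 0.126 to 0.173) and in the Mus table (adjusted p = 0.0936).

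Fosb, which like Fos forms dimers with Jun proteins, read 2.70, 18.7 and 1.5 CPM in skin and 106, 34.1, 18.5 and 15.99 CPM at day 7. Replicate 2 of skin lay above 2 of the 4 wound libraries. Its change was 2.5 ± 1.15 (adjusted p = 0.0764, edgeR). With the replicate number as a block the adjusted p was 0.0236.

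Fosl1, also called Fra-1 and known from migrating epithelial cells, was nearly silent in skin, with 0.119, 0.327 and 0.390 CPM. It reached 8.28, 6.03, 5.39 and 4.33 CPM at day 7. No wound library came near the skin libraries, and the change was 4.49 ± 0.87 (adjusted p = 0.00132, edgeR on the Mus table). Fosl2 (Fra-2), a more steadily expressed member, went from 186, 189 and 175 CPM to 707, 618, 456 and 574 CPM, with far less spread between libraries than Fos. The rise was 1.69 ± 0.17 (adjusted p = 4.94e-08).

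Of the Jun genes, Jun, a strong activator in AP-1 dimers, rose from 52.3, 84.1 and 53.1 CPM to 356, 279, 216 and 214 CPM, by 2.07 ± 0.23 (adjusted p = 1.84e-07, edgeR). Junb, which can dampen Jun at some promoters, rose from 78.0, 98.6 and 64.3 CPM to 1095, 949, 562 and 681 CPM, by 3.36 ± 0.34 (adjusted p = 5.35e-08). In both genes every wound library lay above every skin library. Jund, the member that resting cells express most constantly, read 142, 152 and 111 CPM in skin and 191, 147, 143 and 161 CPM in wounds. These groups overlapped, and the difference was 0.25 ± 0.18 (adjusted p = 0.257).

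Egr1, a growth-factor-induced transcription factor, was at 22.3, 42.4 and 12.6 CPM in skin and at 307, 254, 124 and 148 CPM at day 7, a rise of 3.01 ± 0.68 (adjusted p = 9.85e-04, edgeR). Atf3, a bZIP factor induced by stress, was at 9.43, 35.5 and 18 CPM in skin and at 184, 219, 117 and 113 CPM at day 7, a rise of 2.91 ± 0.47 (adjusted p = 2.87e-05). Ier3, whose protein modulates apoptosis and NF-kappaB signalling, went from 19.7, 15.7 and 16.9 CPM to 308, 289, 230 and 205 CPM, a rise of 3.89 ± 0.30 (adjusted p = 2.56e-06). None of the 3 genes had a skin library as high as its lowest wound library.

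At day 14 the Mus wounds had come part of the way back for most of these genes, while the Fos and Fosb libraries spread widely. Against skin, 5 of 10 genes were still higher and none was lower, with 21.6% of features higher and 22.1% lower in the shared table, and 23.2% higher in the Mus table. Against day 7, 7 of 10 were lower and none higher, with 12.5% of features lower in the shared table and 13.1% in the Mus table. Both comparisons share libraries with the day 7 comparison above. The comparison with day 7 did not pair libraries of equal replicate number, whose residuals correlated by -0.03 to 0.583 in the shared table.

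Fos read 595, 215, 24.3 and 54.7 CPM and Fosb 103, 54.0, 2.92 and 5.96 CPM at day 14, so that replicates 1 and 2 stood at day 7 levels and replicates 3 and 4 within the range of skin. Neither passed the test against skin (Fos 2.31 ± 1.03, adjusted p = 0.0784; Fosb 2.41 ± 1.15, adjusted p = 0.102) or against day 7 (Fos -0.38 ± 0.87, adjusted p = 0.816; Fosb -0.09 ± 0.94, adjusted p = 0.974). Without Mus day 14 replicate 3 the rise of Fos over skin passed (adjusted p = 0.0363), as it did without Mus day 0 replicate 2 (0.0270).

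Fosl1 was at 1.37, 7.78, 1.04 and 1.14 CPM at day 14, with replicate 2 at the day 7 level and the others between skin and day 7. It remained above skin by 3.37 ± 0.90 (adjusted p = 0.0111). The fall from day 7 was -1.12 ± 0.59 (adjusted p = 0.197) and passed without that replicate (adjusted p = 0.00125). Fosl2, at 236, 391, 289 and 295 CPM, was above skin by 0.73 ± 0.17 (adjusted p = 0.00132) and below day 7 by 0.96 on the log2 scale, a fall of 1.95-fold (adjusted p = 9.56e-05).

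Jun, at 180, 156, 125 and 111 CPM, was above skin by 1.18 ± 0.23 (adjusted p = 2.22e-04, edgeR) and had fallen 1.86-fold from day 7 (adjusted p = 0.00254). Junb, at 232, 153, 98.5 and 151 CPM, was above skin by 0.98 ± 0.30 (adjusted p = 0.0125) after a 5.18-fold fall from day 7 (adjusted p = 4.57e-06). The Junb call against skin was lost without Mus day 0 replicate 4 or day 14 replicate 1 (adjusted p 0.0516 to 0.0648). Jund, at 130, 131, 105 and 92.5 CPM, had fallen 1.40-fold from day 7 (adjusted p = 0.0426), and leaving out any of 4 of the 8 libraries ended that call (0.0766 to 0.153).

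Egr1 read 128, 90.8, 11.4 and 26.8 CPM at day 14, from the level of day 7 down to that of skin. It had fallen 3.25-fold from day 7 (adjusted p = 0.0391, edgeR). That call was lost without any of 4 libraries (0.0774 to 0.119), in the Mus table (0.108) and with only the groups compared (0.133). Egr1 stood 1.31 ± 0.65 above skin (adjusted p = 0.111, and 0.0426 with the replicate block). Atf3, at 81.2, 52.9, 16.7 and 35.4 CPM, had fallen 3.41-fold from day 7 (adjusted p = 0.00291) and remained above skin by 1.14 ± 0.45 (adjusted p = 0.0457). That Atf3 call was lost in 4 of 7 fits with a library left out (0.0863 to 0.197) and in the Mus table (0.114). Ier3, at 24.1, 28.7, 17.3 and 41.9 CPM, showed the largest fall of the 10 genes between day 7 and day 14, 9.19-fold (adjusted p = 6.79e-05). Its difference from skin was 0.69 ± 0.26 (adjusted p = 0.0544; 0.0435 with the replicate block).

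**Figure D2:**
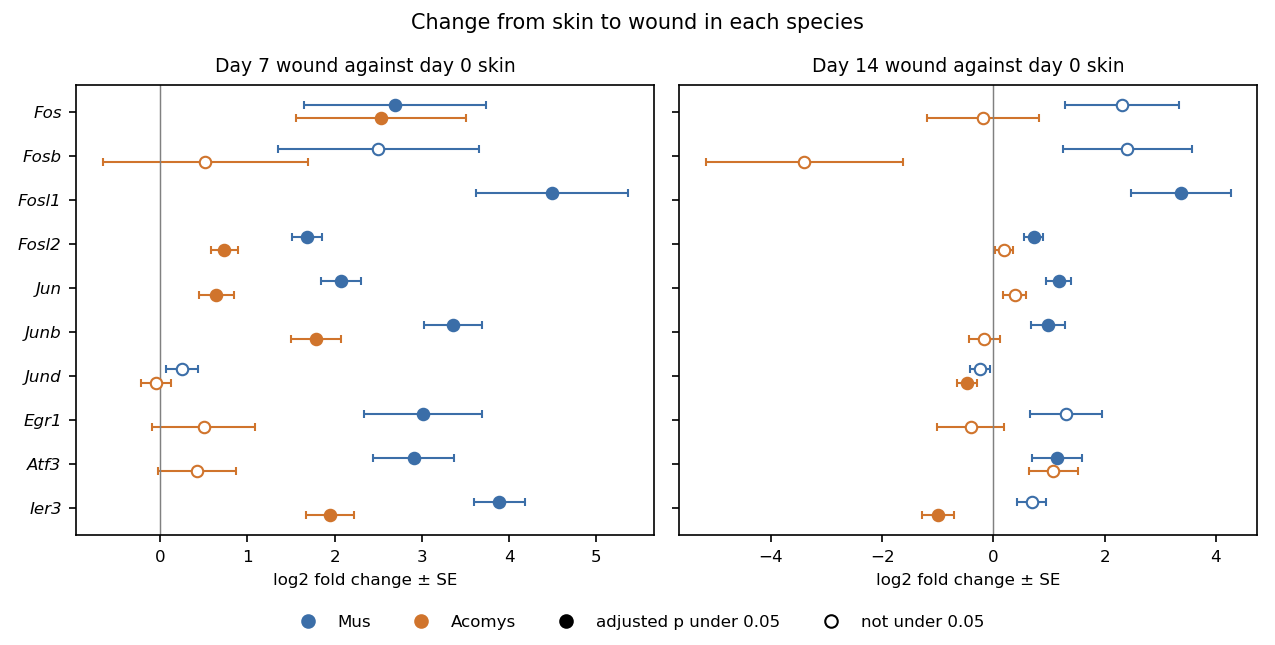
Log2 fold change ± SE of each gene from unwounded skin to the day 7 wound and to the day 14 wound, in Mus and in Acomys. Filled points have an adjusted p under 0.05. Fosl1 is shown for Mus, where it could be tested. At day 7 every Mus point is at or to the right of 0.25, and the Acomys points lie nearer to 0 than those of Mus.

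In Acomys wounds at day 7, 5 of the 9 genes tested had risen (Fos, Fosl2, Jun, Junb and Ier3) and none had fallen. The background was 30.4% of features higher in the shared table and 21.2% in the Acomys table. The median change of the 9 was 0.65 on the log2 scale, against -0.04 for all features of the shared table. Fosb, Jund, Egr1 and Atf3 did not pass the test. Fosl1 failed the filter on low counts in the Acomys table and was not tested.

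Fos in Acomys skin read 5.44, 27.4, 6.82 and 4.27 CPM, and at day 7 53.6, 26.6, 117 and 54.2 CPM. Skin replicate 2 lay just above wound replicate 2, and the other 3 libraries of each group were well apart. The rise was 2.53 ± 0.98 (adjusted p = 0.0318, edgeR), and it was lost in 4 of 8 fits with a library left out (0.0753 to 0.0979). Fosb read 0.627, 11.5, 1.39 and 1.46 CPM in skin and 3.06, 0.639, 8.00 and 9.06 CPM at day 7, with wide overlap (0.52 ± 1.18, adjusted p = 0.721).

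Fosl1 was listed at 0 in 3 of the 4 Acomys skin libraries and at 0.0173 CPM in replicate 2. At day 7 it was at 1.29, 0.213, 0.890 and 1.56 CPM. Over each group this is 0.22 expected counts in skin and 65.9 at day 7, which is at least 19.7-fold higher when skin is set to a floor of 3 counts over the group. Fosl2 rose from 151, 165, 171 and 151 CPM to 300, 224, 296 and 242 CPM, by 0.74 ± 0.15 (adjusted p = 2.81e-04), without overlap.

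Jun rose from 56.4, 67.3, 42.6 and 47.0 CPM to 104, 74.4, 77.9 and 77.4 CPM (0.65 ± 0.20, adjusted p = 0.00905, edgeR). Junb rose from 48.2, 75.6, 37.6 and 61.0 CPM to 189, 113, 266 and 198 CPM (1.78 ± 0.28, adjusted p = 1.49e-05). Both genes had every wound library above every skin library, as in Mus, with smaller changes. Jund read 43.9, 49.6, 22.98 and 45.6 CPM in skin and 36.9, 38.3, 45.4 and 36.2 CPM at day 7 (-0.05 ± 0.17, adjusted p = 0.818).

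Egr1 read 16.8, 33.2, 17.4 and 12.9 CPM in Acomys skin and 31.0, 9.27, 34.7 and 38.0 CPM at day 7, where replicate 2 lay below every skin library (0.50 ± 0.59, adjusted p = 0.484). Atf3 read 8.05, 8.08, 5.43 and 12.7 CPM in skin and 13.2, 9.27, 9.87 and 13.8 CPM at day 7 (0.42 ± 0.44, adjusted p = 0.426). The wound libraries of Atf3 thus stayed within 13.8 CPM, where those of Mus reached 113 to 219 CPM. Ier3 rose from 10.2, 14.59, 6.91 and 16.1 CPM to 37.6, 26.7, 62.4 and 57.1 CPM, by 1.95 ± 0.27 (adjusted p = 2.98e-05).

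By day 14 the Acomys wounds were back at or below skin for most of the 10 genes, with little spread between libraries. Against skin none of the 9 tested was higher and 2, Jund and Ier3, were lower, with 18.9% of features higher and 20% lower in the shared table, and 10.5% lower in the Acomys table. Against day 7, 4 of 9 were lower (Fos, Fosl2, Junb and Ier3) and none higher, with 21.8% of features lower in the shared table and 11.9% in the Acomys table.

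Fos read 10.5, 9.98, 6.34 and 11.4 CPM at day 14, a 6.59-fold fall from day 7 (adjusted p = 0.0303, edgeR) that was lost in 5 of 8 fits with a library left out (0.0570 to 0.0926). It lay within the range of skin (-0.19 ± 1.01, adjusted p = 0.905). Fosb read 0.375, 0.219, 0.357 and 0.369 CPM, below every skin and day 7 library, with adjusted p of 0.144 against skin and 0.0650 against day 7. Under DESeq2 these were 0.00650 and 0.00138, and fitted on the counts of the Acomys table they were 0.0476 and 0.0379. Fosl1 was at 0.123, 0.156, 0.133 and 0 CPM. Fosl2, at 230, 186, 146 and 167 CPM, had fallen 1.46-fold from day 7 (adjusted p = 0.00608).

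Jun, at 85.7, 69.0, 55.8 and 67.9 CPM, did not pass against skin (0.38 ± 0.20, adjusted p = 0.145) or against day 7 (-0.26 ± 0.20, adjusted p = 0.309). Junb, at 54.6, 55.1, 40.9 and 48.1 CPM, had fallen 3.86-fold from day 7 (adjusted p = 1.32e-05, edgeR) to within the range of skin. Jund, at 30.9, 29.2, 27.9 and 29.0 CPM, was 1.39-fold lower than skin (adjusted p = 0.0355), a call lost in 6 of 8 fits with a library left out (0.0635 to 0.129) and in the Acomys table (0.0653). Egr1, at 17.0, 15.1, 15.2 and 13.1 CPM, lay within the skin range (-0.41 ± 0.60, adjusted p = 0.633).

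Atf3 read 17.6, 25.3, 13.8 and 16.4 CPM at day 14, above every skin library, with a difference of 1.08 ± 0.43 (adjusted p = 0.0557, edgeR), and 0.00395 in the Acomys table. Ier3 read 5.78, 7.08, 5.76 and 5.35 CPM, a 7.69-fold fall from day 7 (adjusted p = 2.11e-06) to a level 2.00-fold under skin (adjusted p = 0.0181). The Ier3 call against skin was lost in 5 of 8 fits with a library left out (0.0524 to 0.0705).

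Whether the wound response differed between the species was tested as the difference of the changes, Acomys minus Mus. A constant difference in how a gene is counted in the 2 species cancels there, and one that varies between libraries does not. For the day 7 change, 5 of the 8 genes of the shared table were lower in Acomys and none higher, against 18.7% of features lower and 17.1% higher, and the median of the 8 was -1.5. The 5 were Fosl2 (-0.95 ± 0.23, adjusted p = 0.00248), Jun (-1.43 ± 0.30, adjusted p = 8.85e-04), Junb (-1.57 ± 0.41, adjusted p = 0.00527), Egr1 (-2.52 ± 0.87, adjusted p = 0.0313) and Atf3 (-2.48 ± 0.63, adjusted p = 0.00448), all from edgeR. The wound response of these genes was thus 1.93-fold to 5.72-fold smaller in Acomys.

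Ier3 was compared through the 2 species tables joined by symbol, a comparison added after the zeros of the shared table were seen. Its day 7 change was lower in Acomys by 1.97 on the log2 scale (-1.97 ± 0.38, adjusted p = 4.47e-04, edgeR), where 18.1% of features were lower. The Egr1 call was lost in 6 of 15 fits with a library left out (0.0520 to 0.0829).

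Fos, Fosb and Jund did not pass for the day 7 change. For Fos the changes were 2.69 in Mus and 2.53 in Acomys, and their difference of -0.16 had an SE of 1.36 (adjusted p = 0.957), which is wide enough to hold a difference of several fold in either direction. For Fosb the difference was -1.98 ± 1.64 (adjusted p = 0.370) and for Jund -0.30 ± 0.25 (adjusted p = 0.374). No difference is given for Fosl1, since its skin level in Acomys rests on less than 1 count.

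For the day 14 change, which shares the skin libraries with the day 7 change, 2 of 8 genes were lower in Acomys, against 12% of features lower and 13.1% higher: Fosb (-5.81 ± 2.09, adjusted p = 0.0491, edgeR) and Junb (-1.15 ± 0.41, adjusted p = 0.0459). Both stood close to the threshold and were lost in 11 of 15 fits with a library left out (Fosb 0.0505 to 0.231, Junb 0.0527 to 0.116). Ier3 in the joined tables was lower by 1.75 on the log2 scale (-1.75 ± 0.40, adjusted p = 0.00296, with 12.2% of features lower). Atf3, whose change at day 14 was 1.14 in Mus and 1.08 in Acomys, differed by -0.06 ± 0.63 (adjusted p = 0.973).

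From day 7 to day 14 the species differed in 1 of 8 genes, against 12.7% of features higher in Acomys. This was Atf3 (2.43 ± 0.57, adjusted p = 0.00465, edgeR), which fell in Mus and gave a positive value in Acomys (0.66 ± 0.42, adjusted p = 0.215). The call held in each of the 16 fits with a library left out.

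**Figure D3:**
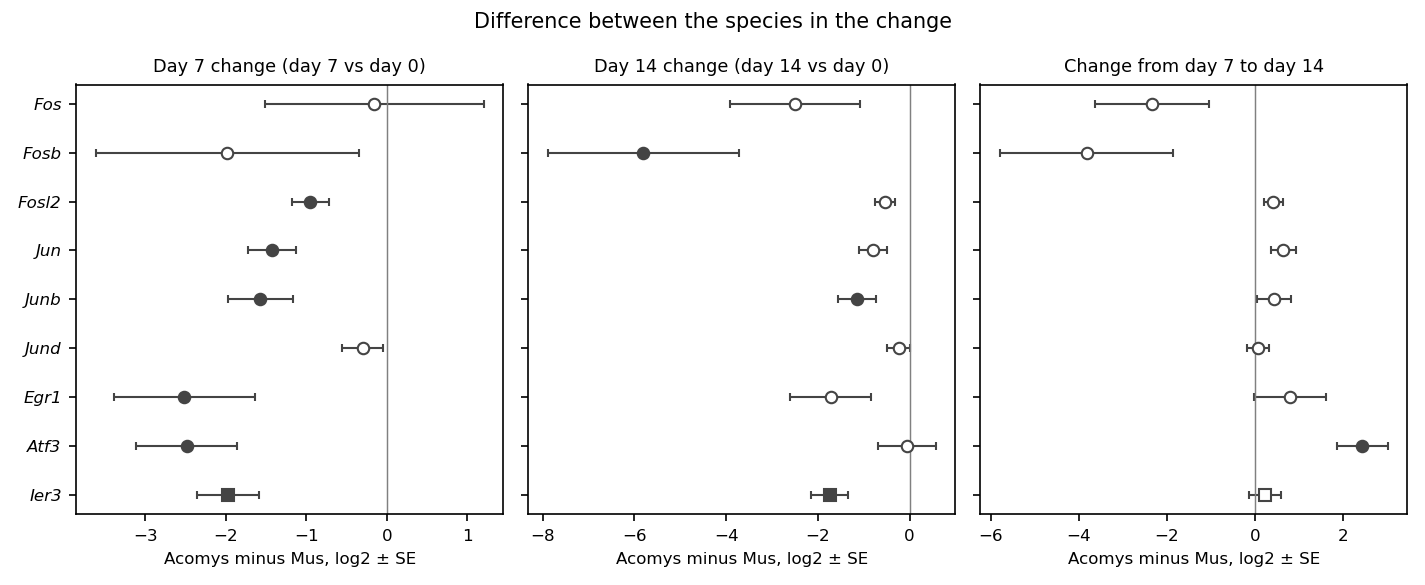
Difference between the species in the change of each gene, Acomys minus Mus, in log2 units ± SE, for the day 7 change, the day 14 change and the change from day 7 to day 14. Filled symbols have an adjusted p under 0.05, circles are from the shared table and the squares of Ier3 from the joined species tables. At day 7 all 9 points lie left of 0, and in the change from day 7 to day 14 Atf3 lies at 2.43.

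Compared directly at the same day, the levels of all 8 genes of the shared table were lower in Acomys at day 7 and at day 14, where 34.9% and 34.6% of all features were lower. At day 7 the Fos groups overlapped (adjusted p = 0.0384, edgeR), and its call was lost in 4 of 8 fits with a library left out (0.0777 to 0.2495). The Fosb call at day 7 was lost without Mus day 7 replicate 1 (0.0877). In unwounded skin 2 of 8 were lower, Jund (3.32-fold, adjusted p = 4.35e-08, edgeR) and Atf3 (2.44-fold, adjusted p = 0.0200), against 31.2% of features. The Atf3 call in skin was lost without Acomys day 0 replicate 3 or Mus day 0 replicate 2 (0.0551 to 0.236). Jund was 3.32-fold, 4.09-fold and 3.92-fold lower at days 0, 7 and 14. Direct comparisons of levels also hold differences in mapping and gene models between the species. Of the counts in each species table, the shared table kept 54.5 to 76.6% per gene in Mus and 39.5 to 71.6% in Acomys. Jund kept 59.5% in Mus and 48.2% in Acomys, and Fosb 54.5% and 39.5%. Over single libraries the share was not constant. For Fosb it ran from 45.9 to 64.1% in Mus and from 12.1 to 57.7% in Acomys. For Jund it ran from 55.5 to 61.3% and from 31 to 55.1%. The part of this in the direct comparisons was not tested.

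The order of the group means shows the same separation. For Junb it ran from Mus day 7 (822 CPM) through Acomys day 7 (192), Mus day 14 (159), Mus day 0 (80.3) and Acomys day 0 (55.6) to Acomys day 14 (49.7). Only the first step was free of overlap, since the libraries of each later pair of neighbours overlapped. For Jun the order was Mus day 7 (266), Mus day 14 (143), Acomys day 7 (83.4), Acomys day 14 (69.6), Mus day 0 (63.2) and Acomys day 0 (53.3), with no overlap in the first 2 steps and overlap in the rest.

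For Fosl2 the order was Mus day 7 (589 CPM), Mus day 14 (303), Acomys day 7 (266), Mus day 0 (183), Acomys day 14 (182) and Acomys day 0 (160), with gaps after Mus day 7 and after Acomys day 7. For Atf3 it was Mus day 7 (158), Mus day 14 (46.6), Mus day 0 (21.0), Acomys day 14 (18.3), Acomys day 7 (11.5) and Acomys day 0 (8.57), so that all Acomys means lay under the skin mean of Mus. For Fos and Egr1 every pair of neighbours overlapped. For Fosb the gap was between Acomys day 0 (3.74) and Acomys day 14 (0.330).

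Within groups, the genes differed sharply in how much their libraries spread. In the 11 Mus libraries the ratio of the highest to the lowest library of a group reached 24.4 for Fos and 35.1 for Fosb at day 14, against at most 1.66 for Fosl2 and Jun. The same libraries tended to be high for several genes. Mus day 0 replicate 2 was the highest of its group for 8 of the 10 genes, Mus day 7 replicate 1 for 9, and Acomys day 0 replicate 2 for 7. Mus day 14 replicate 3 was the lowest of its group for 7 genes and Acomys day 7 replicate 2 for 9. The skin levels of Fos and Fosb thus rest strongly on 1 library per species. How often each library was the highest or lowest of its group over all features was not counted. These ranks may therefore not be particular to the 10 genes. The labels give no batch, date or handling time that could be set beside these ranks.

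**Figure D4:**
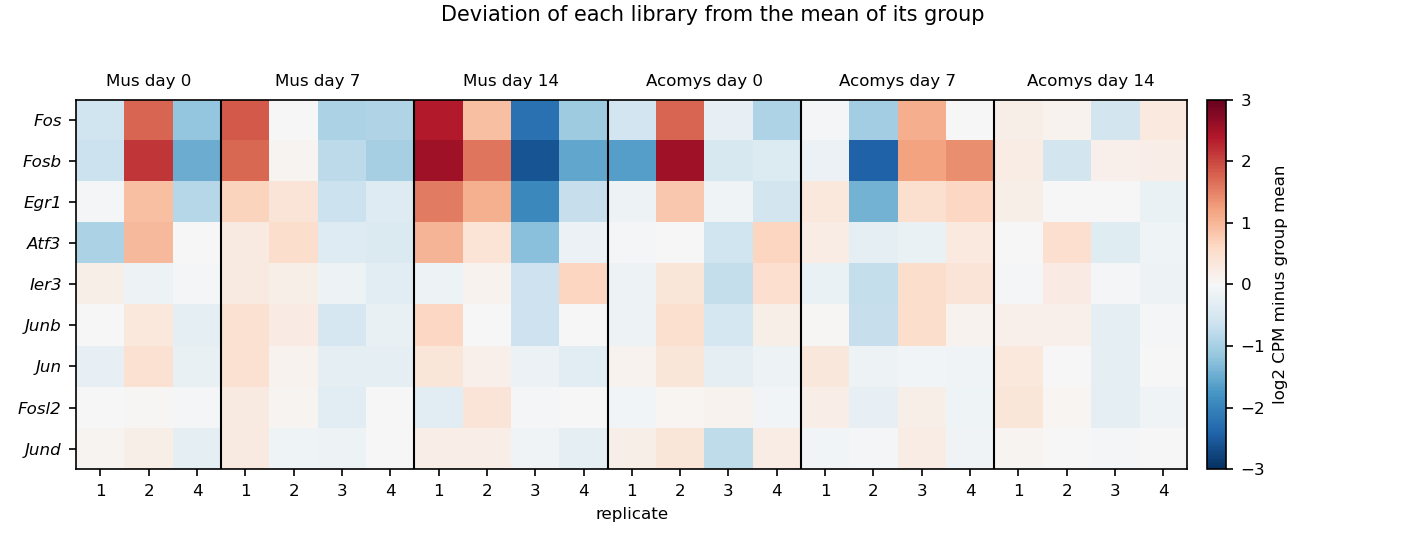
Deviation of each library from the mean of its group, in log2 CPM, for 9 genes (rows) and 23 libraries (columns, by replicate number). Red is above and blue below the group mean. Fos, Fosb and Egr1 deviate together, for example at 2.38, 2.54 and 1.57 in Mus day 14 replicate 1 and at -2.23, -2.59 and -1.93 in replicate 3, while Fosl2 and Jund stay within -0.76 and 0.39.

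The genes with the most similar levels over the 23 libraries are given as a description, since day, species and library set them together. Fos was closest to Cyr61 (Pearson r = 0.952) and Fosb (0.925), and Egr1 to Dusp1 and Zfp36 (0.943 each), all immediate early genes themselves. Junb was closest to Csrnp1 (0.976) and Nfkbid (0.966), Fosl2 to Nfil3 (0.976) and Ccrn4l (0.967), and Atf3 to Eldr (0.925) and Ceacam1 (0.920). Jun was closest to Snx18 (0.945) and Kif21b (0.936). Jund, which separates the species more than the days, was closest to Ptms (0.977) and Krt17 (0.971).

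Markers of cell types changed with the wounds in the same libraries. The summed level of 8 measured neutrophil markers of 10 (Retnlg and Ly6g are not in the shared table) was 120 to 145 CPM in Mus skin, and the day 7 and day 14 wounds held 2164 to 4581 and 127 to 387. In Acomys it was 160 to 242, 1540 to 2167 and 109 to 152 CPM. Clec4d and Trem1 were at 0 in some skin libraries of each species. The 12 monocyte and macrophage markers summed to 1329 to 1450, 3295 to 4550 and 2419 to 3315 CPM in Mus and to 312 to 684, 2327 to 3723 and 1036 to 1398 CPM in Acomys at days 0, 7 and 14. None of these 12 was at 0 in any library.

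The 8 wound-edge keratinocyte markers summed to 970 to 1188 CPM in Mus skin and, in its wounds of days 7 and 14, to 9044 to 16250 and 2932 to 9714. In Acomys the sums at days 0, 7 and 14 were 437 to 562, 5614 to 8383 and 226 to 274 CPM. Sprr1b was at 0 in 1 skin library of each species. At day 7, 6 of the 8 rose in Mus (median 5.32) and 4 in Acomys (median 1.83), and none fell. Of all features, 27% rose in Mus and 30.4% in Acomys. Skeletal muscle markers, 11 of 12 measured, summed to 13540 to 15420 CPM in Mus skin and to 30.0 to 3159 and 12.6 to 6472 CPM in Mus wounds at days 7 and 14. In Acomys the muscle sum was 4979 to 13000, 757 to 1474 and 5406 to 11430 CPM, so it was back in the skin range at day 14. Pvalb and Tnnc2 were at 0 in 1 or 2 Mus day 14 libraries. Endothelial markers, 8 of 8 measured and none at 0, summed to 230 to 273, 806 to 1043 and 537 to 753 CPM in Mus and to 344 to 395, 535 to 697 and 449 to 481 CPM in Acomys at days 0, 7 and 14. At day 7 all 8 rose in Mus (median 1.95) and 6 in Acomys (median 0.80). For the difference of the day 7 changes 7 were lower in Acomys and 1 was higher (median -1.09). Other marker lists went both ways for that difference. Of the 12 monocyte and macrophage markers 6 were higher in Acomys and 2 lower (median 0.989), and of the 8 fibroblast markers 3 were higher and 0 lower (0.897). Of the 8 neutrophil markers 1 was higher and 2 lower (-1.142), and of the 8 wound-edge markers 0 were higher and 3 lower (-0.995). Of all features, 18.7% were lower and 17.1% higher for that difference. The highest libraries of the neutrophil, macrophage, wound-edge and endothelial sums were at day 7 in both species, as were those of Junb, and the part of these markers in the changes of the 10 genes was not tested. Without the 3 Mus wound libraries poorest in muscle transcripts (day 7 replicate 3, day 14 replicates 2 and 3), the Mus day 7 and day 14 counts of changed genes stayed within 1.5 times their values. Single calls did change in these edgeR fits. Against skin at day 14, Fos (adjusted p = 0.0449) and Ier3 (0.0237) passed in addition. From day 7 to day 14, Jund (0.101) and Egr1 (0.096) no longer passed, and Fosl1 (0.007) did.

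The other genes of the pathway were described from 6 lists, chosen with earlier results of these data known. Of all features, 27% rose and 26.7% fell in Mus at day 7, and 30.4% rose and 31.4% fell in Acomys. Upstream, of 12 genes for ligands and receptors of the EGF family and their sheddases, 8 rose and 3 fell in Mus day 7 wounds, and 6 rose and 4 fell in Acomys. The list median was 0.86 in Mus and 0.20 in Acomys, against 0.00 and -0.04 for all features. Nrg1, a ligand of ErbB receptors, rose by 5.06 ± 0.49 in Mus and 4.74 ± 0.37 in Acomys, and Epgn (epigen) by 3.25 ± 0.82 and 3.82 ± 0.76. The ligands Btc and Egf fell in both, with log2 changes of -3.12 and -1.88 for Btc and -2.02 and -3.09 for Egf. The fall of Btc was smaller in Acomys, the only difference of the list that passed in that direction (1.23 ± 0.43, adjusted p = 0.0295, edgeR). Egfr, the receptor, fell by 0.93 in Acomys and not in Mus (-0.08 ± 0.15, adjusted p = 0.670, edgeR), a difference of -0.84 ± 0.21 (adjusted p = 0.00355). Adam17, which sheds several of these ligands, rose in both and more in Mus (0.79 and 0.26, difference -0.53 ± 0.14, adjusted p = 0.00616).

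Of 25 MAP kinases, kinase kinases, serum response factor partners and downstream kinases, 10 rose and 4 fell in Mus at day 7 and 6 rose and 4 fell in Acomys. The list medians were 0.14 and -0.04. Elk3, a ternary complex factor, rose by 2.00 ± 0.13 in Mus and 1.81 ± 0.12 in Acomys. Map2k3, a kinase upstream of p38, rose by 0.93 in Mus and fell by 0.80 in Acomys (difference -1.73 ± 0.21, adjusted p = 2.45e-06, edgeR). Mapk12, a p38 isoform of muscle, fell in both (-1.06 and -1.35), and Map2k6 fell in Mus (-0.76 ± 0.18). Rps6ka1, a kinase downstream of ERK, rose more in Acomys (0.73 and 1.45, difference 0.72 ± 0.21, adjusted p = 0.0106). Mapk10, the neuronal JNK, was at 0 in all Mus skin libraries and at most at 0.405 CPM in the day 7 wounds.

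The phosphatases and other feedback inhibitors of the MAP kinases split. Of 18, 9 rose and 1 fell in Mus at day 7, and 8 rose and 8 fell in Acomys, with list medians of 0.32 and -0.02. Dusp2 and Dusp5, phosphatases that ERK signalling induces, rose by 4.39 ± 0.51 and 3.61 ± 0.28 in Mus and by 1.07 ± 0.43 and 1.37 ± 0.25 in Acomys. Both changes were smaller in Acomys (Dusp2 -3.31 ± 0.67, adjusted p = 6.70e-04; Dusp5 -2.24 ± 0.37, adjusted p = 7.88e-05, edgeR). Spry1 (Sprouty-1), a feedback inhibitor, fell in both species (-1.42 ± 0.17 and -1.31 ± 0.15), and Spred3, of a related family, rose in both (1.75 ± 0.26 and 1.64 ± 0.21). Dusp8 fell in Acomys (-1.52 ± 0.30).

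Of 38 measured immediate early genes beside the 10, 30 rose and 3 fell in Mus at day 7, and 21 rose and 5 fell in Acomys. The list median was 1.88 in Mus and 0.55 in Acomys. For the difference of the day 7 changes, 21 of 38 were lower in Acomys and 1 was higher, where 18.7% of features were lower and 17.1% higher. The list median was -1.16 against -0.02 for all features. Csrnp1 and the orphan receptor gene Nr4a3 rose by 4.24 ± 0.37 and 5.87 ± 0.97 in Mus and by 1.51 ± 0.30 and 3.45 ± 0.87 in Acomys. The difference passed for Csrnp1 (-2.73 ± 0.45, adjusted p = 9.22e-05, edgeR) and not for Nr4a3 (-2.42 ± 1.48, adjusted p = 0.216). The stress genes Gadd45a and Plk3 showed large differences (-3.11 ± 0.29, adjusted p = 5.67e-08, and -2.90 ± 0.33, adjusted p = 9.88e-07).

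The exceptions among the immediate early genes went in both directions. Socs3, the inhibitor of cytokine signalling, rose more in Acomys (2.91 ± 0.31 in Mus, 4.08 ± 0.30 in Acomys, difference 1.17 ± 0.40, adjusted p = 0.0281, edgeR). Egr2 and Egr3, zinc finger relatives of Egr1, fell in both species, by 0.91 and 0.77 in Mus and by 2.27 and 1.79 in Acomys. They therefore moved against Egr1 in Mus. Hair follicle markers, 10 of 10 measured, ranged from 37.0 to 41.5 CPM in Mus skin and from 7.96 to 530 at day 7, and from 43.3 to 1150 CPM in Acomys skin and 4.80 to 8.63 at day 7, with up to 4 of them at 0 in a Mus skin library and 1 in an Acomys day 7 library. In Mus day 7 replicate 1, 3 of these markers were at 0. At day 7, 6 of the 10 rose and 2 fell in Mus (median 4.025), where 27% of all features rose and 26.7% fell. In Acomys 0 rose and 9 fell (median -5.521), where 30.4% of all features rose and 31.4% fell. The part of hair follicle content in the Egr2 and Egr3 changes was not tested.

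Of 23 measured bZIP genes that encode partners or competitors of AP-1, 15 rose and 2 fell in Mus at day 7, and 12 rose and 6 fell in Acomys, with list medians of 0.75 and 0.31. For the difference, 9 of 23 were lower in Acomys and none higher, against 18.7% and 17.1% of features. Batf, an AP-1 partner of lymphoid and myeloid cells, and Maff, a small Maf protein, rose by 2.66 ± 0.38 and 2.49 ± 0.25 in Mus and by 1.88 ± 0.32 and 1.24 ± 0.23 in Acomys. Crem, a cAMP-responsive factor, rose in both species (2.27 and 2.66, difference 0.40 ± 0.51, adjusted p = 0.584, edgeR). Ddit3 (CHOP), a factor of the endoplasmic reticulum stress response, rose by 1.32 in Mus and fell by 0.50 in Acomys (difference -1.82 ± 0.28, adjusted p = 3.37e-05). Atf5 and Bach2 fell in both.

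Downstream, of 27 measured genes known as AP-1 targets in wounded skin, 21 rose and none fell in Mus at day 7, and 23 rose and 1 fell in Acomys. The list medians were 3.65 and 3.13, and for the difference 6 were lower and 3 higher in Acomys, near the 18.7% and 17.1% of all features, with a median of -0.12 against -0.02 for all features. Tnc (tenascin C) rose by 6.52 ± 0.38 in Mus and 7.45 ± 0.35 in Acomys (difference 0.93 ± 0.39, adjusted p = 0.0708, edgeR), and the collagenase gene Mmp13 by 6.65 ± 0.78 and 8.84 ± 0.75 (difference 2.19 ± 1.42, adjusted p = 0.247).

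Single targets differed in both directions. The stromelysin gene Mmp3 rose in Acomys, from 3.86 ± 1.08 to 155 ± 61.8 CPM (SD, n = 4 and 4), and was already at 326 ± 16.8 CPM (n = 3) in Mus skin, where its change was 0.28 ± 0.26. The difference was 5.04 ± 0.40 (adjusted p = 1.24e-08, edgeR). Mmp9, the gelatinase of neutrophils and macrophages, rose more in Acomys (4.02 and 7.08, difference 3.06 ± 0.70, adjusted p = 0.00214). In the other direction, Krt16, a keratin of the wound edge, rose by 6.29 ± 0.49 in Mus and not in Acomys (-0.30 ± 0.47), a difference of -6.58 ± 0.65 (adjusted p = 2.59e-07). Spp1 (osteopontin) rose by 7.96 ± 0.88 and 4.27 ± 0.64 (difference -3.69 ± 0.95, adjusted p = 0.00544).

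The matrix enzyme gene Mmp10 was at 0 in the 3 Mus skin libraries and at 18.1 ± 14.26 CPM at day 7, which is at least 125-fold higher with skin set to a floor of 3 counts over the group, and in Acomys it rose from 1.72 ± 0.27 to 9.04 ± 2.55 CPM (SD, n = 4 and 4). Lor, the loricrin gene of the cornified envelope, fell in Acomys (-2.46 ± 0.40) and gave -0.77 ± 0.38 in Mus (adjusted p = 0.0905, edgeR). Krt16 and Krt6a are also in the wound-edge marker list, so their counts are not independent of it.

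**Figure D5:**
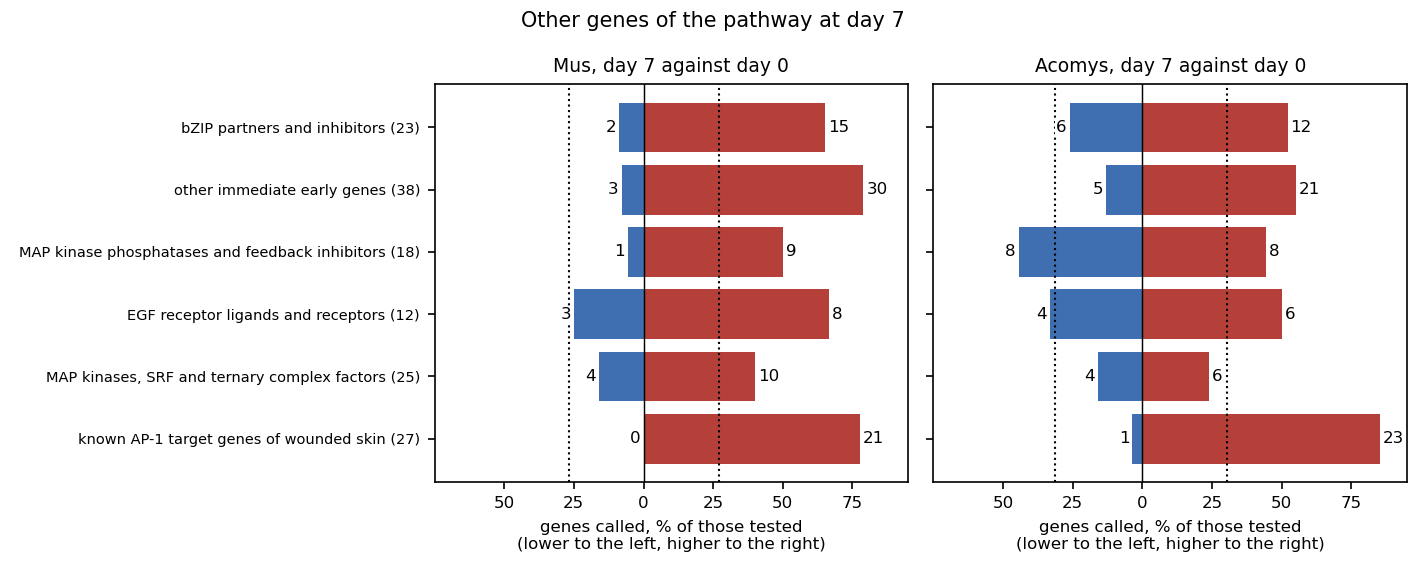
Share of the genes of each pathway list that rose (red, to the right) or fell (blue, to the left) at day 7 against unwounded skin, in percent of the genes tested (number in brackets), with the number of genes beside each bar. Dotted lines are the shares of all features of the shared table that rose or fell, 27 and 26.7% in Mus and 30.4 and 31.4% in Acomys. Of the immediate early genes 30 of 38 rose in Mus and 21 in Acomys, and of the AP-1 targets 21 and 23 of 27 rose.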

How the data were processed

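Per the submitters' processing notes, FastQC 0.11.4, Trimmomatic 0.32, RSEM 1.2.28, Bowtie2 and the build mm9 were used, with no step assigned to each. The authors deposited expected counts for each species, and whole counts for the shared table, whose making is not given in the sources used here. Spike-in RNAs (0.679 to 1.96% of counts) were removed and expected counts were rounded. Each table was fitted with all its groups: filterByExpr, TMM, and the quasi-likelihood F-test of edgeR 4.0.16 in R 4.3.3 (robust, two-sided, no block), for 12 contrasts. Benjamini-Hochberg adjustment covered the 14514 (shared), 15423 (Mus), 36053 (Acomys) or 15686 (joined) features tested, with 0.05 as the threshold. All 8 genes read from the shared table passed the filter. The SE was taken from the F statistic.

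The genes and lists were chosen with earlier results of these data known. Named pathway genes are up to 2 per list and direction with the largest called change in the Mus day 7, Acomys day 7 and day 7 difference contrasts; a gene that this rule names is not reported here. Alternatives were RLE size factors, no filter, DESeq2 1.42.0, only the groups compared, a replicate block, the table of each species, leaving out 3 muscle-poor Mus libraries and leaving out each library. Equal replicate numbers are not said to mark an animal. Residuals of equal numbers correlated by 0.12 to 0.209 between Mus day 0 and the wounds in the Mus table, and by 0.061 to 0.143 in the shared table, against a limit of 0.1, so a Mus value against day 0 carries its blocked p wherever the block changes the call. Between Mus day 7 and day 14 these residuals correlated by 0 to 0.598 in the Mus table and by -0.03 to 0.583 in the shared table. The main test of Mus day 14 against day 7 did not pair these libraries. The fits were tested on simulated data. The pooled Acomys library was not analysed here.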

Additional observations from a re-analysis of the deposited data

Results flagged for a closer look

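Of 50 groups of 4 libraries, 7 held a library that stood apart by Dixon's 95% critical value for 4 libraries. That value applies to the gap to the nearest other library as a share of the group's range. Normally distributed values pass it in about 1 of 20 groups. CPM was used here without logs and some groups lay near 0, so that rate need not hold. Fos was at 731 CPM in Mus day 7 replicate 1 (next 207) and at 27.4 in Acomys day 0 replicate 2 (next 6.82). Fosb was at 11.5 CPM in the same Acomys skin library (next 1.46) and lowest, at 0.219, in Acomys day 14 replicate 2 (next 0.357). Jun was at 104 CPM in Acomys day 7 replicate 1 (next 77.9). Fosl1 was at 7.78 CPM in Mus day 14 replicate 2 (next 1.37) and at 0.0173 in Acomys day 0 replicate 2, where the others were at 0. Acomys day 0 replicate 2 thus stood apart for Fos and Fosb. Its Fosl1 value is 0.22 expected counts, and any value above 0 beside libraries at 0 passes this rule. The low Fosb value is 2 counts, against 4 in each other library of its group.

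The tested difference between the species (Acomys minus Mus, log2) passed for the day 7 change of Fosl2 (-0.95), Jun (-1.43), Junb (-1.57), Egr1 (-2.52), Atf3 (-2.48) and Ier3 (-1.97). It passed for the day 14 change of Fosb (-5.81), Junb (-1.15) and Ier3 (-1.75), and for the change of Atf3 from day 7 to day 14 (2.43). The SE and adjusted p of each are given above.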

How the results depend on the processing

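The numbers of changed genes stayed within 1.5 times their values under RLE, no filter, DESeq2, only the groups compared, the block, the species tables and without the 3 muscle-poor libraries, except as follows. Against skin in Acomys at day 14 the count of 2 became 1 with no filter, 4 under DESeq2 and 4 with the replicate block. The day 14 difference between species went from 2 genes to 1 with only the groups compared. The difference from day 7 to day 14 went from 1 to 2 under DESeq2, with the replicate block, and without the muscle-poor libraries. With single libraries left out, the counts ranged from 7 to 9 (Mus day 7), 3 to 8 (Mus day 14), 5 to 8 (Mus day 14 against 7), 4 to 6 (Acomys day 7), 0 to 2 (Acomys day 14) and 3 to 5 (Acomys day 14 against 7). Between species they were 1 to 3, 6 to 8 and 8 to 8 at days 0, 7 and 14, and 4 to 6, 0 to 3 and 1 to 1 for the 3 differences of changes.

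All reversals concerned values that had not passed the test. Fosb from day 7 to day 14 in Mus (-0.09) became 0.0477 without the muscle-poor libraries and 0.0435 in the Mus table. With single libraries left out it ranged from -1.09 to 0.85, and Fos in the same contrast from -1.57 to 0.66. In Acomys, Jund at day 7 ranged from -0.24 to 0.0602, and at day 14 Fos from -0.46 to 0.80 and Junb from -0.31 to 0.019. Between species in skin, Fosb ranged from -2.75 to 0.82, Jun from -0.38 to 0.0122 and Egr1 from -0.72 to 0.20. For the differences of changes, Fos at day 7 ranged from -1.58 to 0.88, Atf3 at day 14 from -0.67 to 0.35 and Jund from day 7 to day 14 from -0.0341 to 0.14. Of 668 values under the other alternatives 623 kept direction and side of the threshold, and of 1034 with a library left out 922 did. The cause was not tested. Beside the Mus calls against day 0 given above, the replicate block added calls for Jun (adjusted p = 0.0439) and Atf3 (0.0269) in Acomys at day 14, for Fosb (0.0334) and Jund (0.0465) from day 7 to day 14 there, and for the species difference of Jun at day 14 (0.00885) and from day 7 to day 14 (0.0320), and ended none. Fosl1 in Acomys, at most 1.56 CPM, and Fosb at day 14 there, under 1 CPM, rest on few counts.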

Other observations

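At day 14, 21.6% of all features were higher and 22.1% lower than skin in Mus, and 18.9% were higher and 20% lower in Acomys. Of the 27 AP-1 target genes of wounded skin, 18 were still higher than skin and 1 was lower in Mus, and 14 were higher and 3 lower in Acomys, with list medians of 1.87 and 0.58. For the difference of the day 14 changes, 10 of 27 were lower in Acomys and 2 higher, where 12% of all features were lower and 13.1% higher. Krt16 stood 5.51 ± 0.47 above skin in Mus at day 14 and 1.61 below skin on the log2 scale in Acomys (-1.61 ± 0.54). Mmp13 remained 7.00 ± 0.78 above skin in Mus and 3.27 ± 0.90 in Acomys, and Spp1 4.75 ± 0.79 and 4.53 ± 0.65.

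Of the 38 other immediate early genes, 18 were higher and 3 lower than skin in Mus at day 14, and 5 were higher and 7 lower in Acomys, the latter both under the shares of all features, with list medians of 0.49 and -0.18. From day 7 to day 14, 26 of them fell in Mus and 19 in Acomys, against 12.5% and 21.8% of all features. For the difference of the day 14 changes, 8 of the 38 were lower in Acomys and 1 was higher, where the day 7 changes gave 21 and 1. Csrnp1 was 1.09 ± 0.34 above skin in Mus at day 14 and gave -0.51 ± 0.31 in Acomys (adjusted p = 0.211, edgeR). Gadd45a, the DNA damage response gene, was above skin in both species (1.32 ± 0.23 and 0.83 ± 0.18).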
